A study of Mus musculus with 12 samples.

Results

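Lumbar spinal cord RNA of 30-day-old mice carrying mutant human mitofusin 2 was compared with that of wild-type mice. Of the 12 samples of the series, 9 entered the comparison: the 5 MFN2 libraries numbered 72 to 76 and the 4 WT libraries numbered 44 to 47. They were chosen by these library numbers in the sample labels and not by any measured value. The MFN2 mice are the MitoCharc1 line, which carries the transgene Tg(Eno2-MFN2*R94Q)L51Ugfm on a B6;D2 background, so that the neuron-specific rat Eno2 promoter drives human MFN2 with the R94Q change. They are hemizygous for the transgene. The labels give the WT mice as C57BL/6 and the study's methods give them as littermates, and no mouse was treated. The other 3 MFN2 libraries, numbered 41 to 43, have the same labels as 72 to 76 and are set beside them below. Genotype, strain label and library number change together between the groups compared here, so their parts in any difference cannot be told apart. The study's methods give as many MFN2 and WT mice as the series holds libraries of each genotype. The labels themselves do not tie each library to an animal, and p-values measure the spread between libraries.

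Mitofusin 2 is a GTPase of the outer mitochondrial membrane that fuses mitochondria and tethers them to the endoplasmic reticulum. Dominant changes in it cause Charcot-Marie-Tooth disease type 2A, a neuropathy of long motor and sensory axons, which rely on moving mitochondria far from the cell body. Removal of damaged mitochondria by autophagy, the lysosome and the respiratory chain are therefore the functions most often examined in this disease.

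Total counts were 22842152, 22232157, 23564568 and 19453238 in WT libraries 44, 45, 46 and 47, and 22083683, 19359454, 24065764, 25296863 and 19664119 in MFN2 libraries 72 to 76. The level of a gene is given in CPM, its count relative to the total of the library, after scaling by trimmed mean of M values (TMM), always in the order of these library numbers. Library composition was checked with markers. Xist, the RNA of the inactive X chromosome, was at 0, 277, 258 and 329.5 CPM in WT and 312, 402, 376, 293 and 315 CPM in MFN2 72 to 76. WT library 44 was thus the only one of the 9 without Xist, and it alone held the Y-linked Ddx3y. The motor neuron gene Chat was at 16.4, 21.5, 21.4 and 35.3 CPM in WT and 23.9, 22.3, 27.6, 30.3 and 27.8 CPM in MFN2 72 to 76, and the neurofilament gene Nefh at 1615, 2318, 2408 and 2680.3 CPM and 2468, 2394, 2593, 2837 and 2938 CPM. Both groups thus hold the markers of spinal motor neurons at overlapping levels. A single gene, Gm23935, annotated as a microRNA gene at chr16:11144125-11144181, took a large share of all libraries, with 84947, 100722, 104166 and 77045 CPM in WT, 51986, 54538, 53856, 57497 and 56328 CPM in MFN2 72 to 76 and 86772, 75092 and 91567 CPM in MFN2 41 to 43. It was thus lower in MFN2 72 to 76 without overlap (log2 fold change -0.74 ± 0.09, adjusted p = 0.00026). The 10 genes with the most counts took 15.6% to 17.4% of a WT library, 12.9% to 14.3% of MFN2 72 to 76 and 14.5% to 15.8% of MFN2 41 to 43. The part of this difference in the results below was not tested. MFN2 library 43 stood apart from all others, with forebrain genes summing to 5317 CPM against 329 to 438 CPM in the other 11 libraries.

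Of 15743 genes above 1 CPM in 3 or more of the 9 libraries, 3746 (23.8%) passed an adjusted p of 0.05 (edgeR quasi-likelihood, Benjamini-Hochberg). They divided into 1746 genes higher in MFN2 72 to 76 (11.1% of those tested) and 2000 lower (12.7%). Scaled by library size alone, 2822 were higher and 1345 lower, and the median of all genes moved from -0.00066 to 0.07 on the log2 scale. Most changes were small: the median absolute log2 fold change of the called genes was 0.35, and 68.9% of them changed by less than 0.5. In 3112 genes (19.8%) the 5 MFN2 and the 4 WT libraries did not overlap at all. Leaving out single libraries left between 2350 calls (without WT 45) and 4517 (without WT 44), and adding MFN2 41 to 43 to the fit as a group of their own left 1224. Without WT 45, 1069 of 15697 genes were higher and 1281 lower, and without WT 44, 2146 of 15636 were higher and 2371 lower. List counts without single libraries are to be read beside such totals. Over all genes tested, the split into MFN2 72 to 76 and WT accounted for 37.3% of the squared distance between libraries (pseudo-F 4.17, exact permutation p = 0.00794, the smallest that 126 splits allow). Along the first principal component, with 39.9% of the variance, WT libraries lay between -39.6 and -12.5 and MFN2 libraries between 10.2 and 27.5.

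Mouse Mfn2 itself was at 194, 221, 228 and 209 CPM in WT and 212, 189.7, 204, 199 and 190.0 CPM in MFN2 72 to 76, and the groups overlapped. The difference of -0.10 in mean log2 CPM did not pass an exact permutation test (two-sided p = 0.127). Scaled by library size alone, the difference was -0.03 (two-sided p = 0.548 in the same permutation test). The human transgene was not analysed here. Neither the paralog Mfn1 (log2 fold change -0.07 ± 0.06 SE, adjusted p = 0.429) nor the neuronal enolase Eno2 (-0.13 ± 0.06, adjusted p = 0.122), whose rat promoter drives the transgene, passed the test. With library size alone as scaling, the log2 fold change of Mfn1 was 0.0047.

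Several long noncoding RNAs that stay in the nucleus were higher in MFN2 72 to 76. Meg3, a maternally expressed long RNA of the Dlk1-Dio3 imprinted region, was at 1607, 902, 981 and 1209 CPM in WT and 2028, 2737, 2891, 3241 and 2256 CPM in MFN2 72 to 76. Every MFN2 library lay above every WT library, with a log2 fold change of 1.16 ± 0.20 (SE; adjusted p = 0.00459). Mirg, a microRNA host transcript of the same region, rose by 0.85 (adjusted p = 0.00408). Snhg14, the long host RNA of the Snord116 genes that runs antisense to Ube3a, rose by 0.72 (adjusted p = 0.00189). Kcnq1ot1, an imprinted RNA that silences its neighbours, went from 129, 107, 96.3 and 148 CPM to 171, 238, 204, 239.6 and 196 CPM (adjusted p = 0.00424). Malat1, a nuclear speckle RNA, was at 9743, 7778, 7345 and 11760.2 CPM and 11559, 17082, 14192, 17022 and 16365 CPM, so WT library 47 and MFN2 library 72 overlapped (log2 fold change 0.73 ± 0.16, adjusted p = 0.0102). In MFN2 41 to 43 the same transcripts were near WT: Meg3 was at 954, 1083 and 1524 CPM and Malat1 at 7867, 7276 and 7701 CPM. Of the 21 tested small nucleolar host and nuclear long noncoding RNAs, 8 (38.1%) were higher and 2 (9.52%) lower, beside 11.1% and 12.7% over all genes. Their median log2 fold change was -0.01, beside -0.00066 over all genes, and its sign changed with several alternatives.

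**Figure D1:**
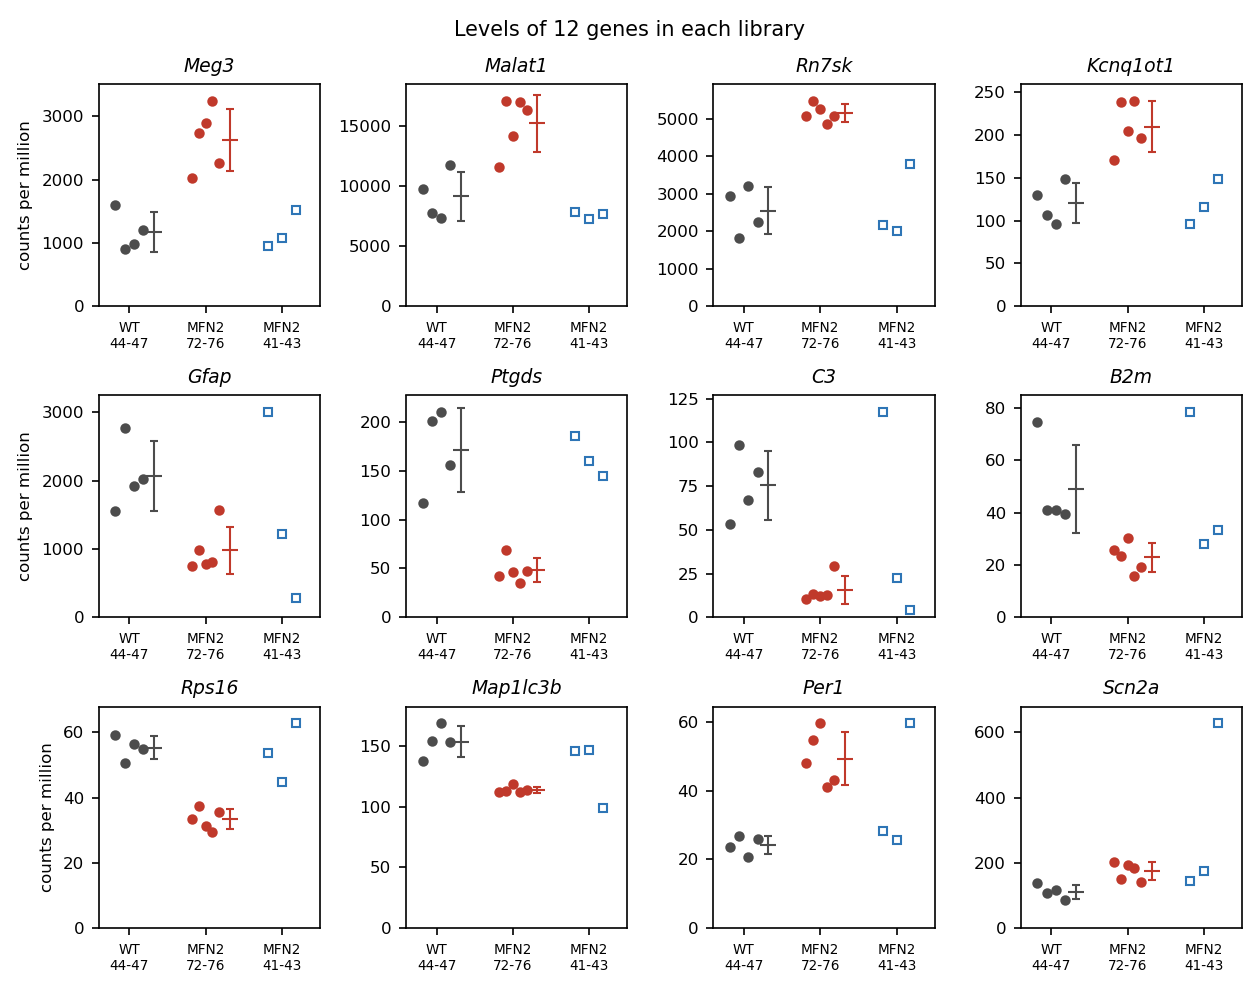
Level of 12 genes in CPM (vertical axes, each starting at 0) in every library of the series; filled points are WT 44 to 47 (grey) and MFN2 72 to 76 (red) with their mean ± SD beside them, and open squares are MFN2 41 to 43. The filled groups overlap in Malat1 and Gfap and in none of the other 10 genes.

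Rn7sk and Rmrp, a pair of small noncoding RNAs chosen after their values were seen, were higher in MFN2 72 to 76. Rn7sk, the RNA that holds the elongation factor P-TEFb inactive, was at 2948, 1821, 3198 and 2249.8 CPM in WT and 5087, 5482, 5271, 4872 and 5079 CPM in MFN2 72 to 76, about 2.02 times the WT mean. Rmrp, the RNA of the RNase MRP enzyme, was at 201, 78.8, 174 and 110.1 CPM and 279, 267, 275, 314 and 300.2 CPM. Neither gene overlapped between the groups (adjusted p = 0.00135 and 0.0249). Small nucleolar RNAs (snoRNAs), which guide chemical modification of ribosomal RNA, were measured thinly, since most of the 1507 listed were under the filter. Of 14 snoRNA genes above 1 CPM in all 9 libraries, 9 were higher and none lower at an adjusted p of 0.05, where 11.8% of all genes under that filter were higher and 13.4% lower. Snora73b rose from 6.51 ± 1.96 CPM (SD, n = 4) to 14.3 ± 1.2 CPM (SD, n = 5). Summed over all snoRNA genes, levels were 135, 88.5, 177 and 129 CPM in WT and 213, 229.5, 269, 265 and 251 CPM in MFN2 72 to 76, so the groups did not overlap. In MFN2 41, 42 and 43 the sums were 83.4, 96.2 and 211 CPM, so library 43 lay above WT and just below MFN2 72 to 76. The study's methods name both poly(A) sequencing and a total RNA kit, and the part of RNA selection in the levels of these small RNAs, most of which carry no poly(A) tail, was not tested. Of 4 tested genes annotated as ribosomal RNA, 3 were higher and 1 lower, beside 11.1% and 12.7% over all genes. The lower one, CT010467.1, went from 171 to 55.5 CPM (log2 fold change -1.63, adjusted p = 0.000672).

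The family of RNase P RNA, the RNA part of the enzyme that trims transfer RNA precursors, held the pair of genes with the largest fitted rises of the comparison. This pair, Rprl3 and Rprl2, could pass the filter only through MFN2 72 to 76, so nothing is read from its direction. Rprl3 had 0 counts in all 4 WT libraries and in MFN2 41 to 43, and 237, 333, 503, 482 and 361 counts in MFN2 72 to 76. Against a floor of 3 counts over the WT group, it was at least 483-fold higher. Rprl2 was at 0, 0, 0 and 0.052 CPM in WT and 1.63, 17, 18.5, 17.3 and 19.6 CPM in MFN2 72 to 76, where library 72 was low. The main RNase P RNA gene, Rpph1, fell from 1559, 1496, 2103 and 1468 CPM to 1444, 1252, 1280.5, 1173 and 1291 CPM (log2 fold change -0.36 ± 0.10, adjusted p = 0.0271). That call was lost in 6 alternatives, among them scaling by library size alone and the fit without MFN2 library 73, 74 or 75. The 3 RNAs are alike in sequence, and how reads that fit more than 1 of them were counted was not stated. No full-length read fits more than 1 of them exactly, so such reads would be shorter or hold mismatches. Their part in the split between the RNAs was not tested. The sequences of the 3 RNAs are shown because their likeness bears on how reads were counted. They come from the GENCODE transcripts on GRCm38.p6, written 5′ to 3′ along the RNA, and capitals mark the bases of Rprl2 and Rprl3 that differ from the aligned base of Rpph1. Rpph1 lies at chr14:50807449-50807767 on the minus strand, Rprl2 at chr3:22251374-22251663 on the plus strand and Rprl3 at chr8:3803069-3803358 on the minus strand.
Rpph1, bases 1 to 300: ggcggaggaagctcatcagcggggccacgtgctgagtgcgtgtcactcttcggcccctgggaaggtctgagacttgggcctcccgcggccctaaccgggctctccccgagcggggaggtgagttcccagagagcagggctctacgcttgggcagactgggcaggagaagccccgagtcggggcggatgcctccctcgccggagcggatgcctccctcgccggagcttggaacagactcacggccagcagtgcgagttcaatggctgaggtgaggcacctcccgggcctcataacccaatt
Rprl2: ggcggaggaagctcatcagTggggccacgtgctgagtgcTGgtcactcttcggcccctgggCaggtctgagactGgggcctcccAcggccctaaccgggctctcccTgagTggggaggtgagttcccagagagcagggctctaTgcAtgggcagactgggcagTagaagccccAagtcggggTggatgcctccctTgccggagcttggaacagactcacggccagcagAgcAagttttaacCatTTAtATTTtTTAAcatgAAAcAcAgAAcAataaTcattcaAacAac
Rprl3: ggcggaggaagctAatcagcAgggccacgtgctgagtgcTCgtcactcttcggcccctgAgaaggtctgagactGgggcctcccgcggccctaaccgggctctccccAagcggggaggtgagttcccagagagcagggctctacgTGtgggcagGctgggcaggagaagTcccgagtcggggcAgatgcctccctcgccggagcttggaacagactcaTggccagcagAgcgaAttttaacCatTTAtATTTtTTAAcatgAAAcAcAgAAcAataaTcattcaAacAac
Rprl3 is identical to Rpph1 at 86.6% of 284 aligned bases and to Rprl2 at 92.1% of 290. No run of 75 bases, the read length, is shared exactly between any pair of the 3.

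Genes annotated inside introns held more higher calls than lower ones. GENCODE's TEC class holds mostly unspliced transcripts that still await experimental testing, and many of them lie within introns of long neuronal genes. To describe this class, noncoding genes were taken that lie wholly in an intron of 1 tested protein-coding gene on the same strand, a definition made after the data had been seen. Among those above 1 CPM in all 9 libraries, 191 genes in 133 hosts, 74 were higher and 3 lower at an adjusted p of 0.05, where 11.8% of all genes under that filter were higher and 13.4% lower. In the fit of all 15743 genes their median log2 fold change was 0.56, that of their hosts was 0.03, and 181 of the 191 had a larger log2 fold change than their own host. Within that fit 69 of the 191 were higher, 63 without WT library 44, 52 without MFN2 library 73 and 11 with MFN2 41 to 43 added to the fit as a group of their own. The sum over the 191 genes was 1338, 1431, 1452 and 1469 CPM in WT, 1868, 2185, 2035, 2047 and 1996 CPM in MFN2 72 to 76, and 1389, 1450.0 and 1591 CPM in MFN2 41 to 43. Reads of a host's unspliced RNA and of an intronic gene on the same strand cannot be told apart.

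Hosts with 5 or more of these 191 genes were 7, a limit chosen after the data had been seen. Adgrb3, an adhesion receptor, held 12 with a median log2 fold change of 0.70, of which 6 were higher at an adjusted p of 0.05, while Adgrb3 itself changed by 0.21 ± 0.06 (adjusted p = 0.0234, lost in 8 of 25 alternatives). Ank2, an ankyrin of the membrane skeleton, held 10 with a median of 0.55 and 3 higher, beside 0.04 ± 0.06 for Ank2 itself (adjusted p = 0.684). Fam155a, a subunit of the sodium leak channel complex, held 6 with a median of 1.14, all of them higher, beside 0.29 ± 0.04 (adjusted p = 0.00102). The 5 genes in Kcnip4, which encodes a potassium channel partner, and the 5 in Frmd4a, a scaffold of epithelial polarity, were also all higher, with log2 fold changes from 0.81 to 1.25 and from 0.89 to 1.18. Kcnip4 itself changed by 0.27 ± 0.14 (adjusted p = 0.192) and Frmd4a by 0.36 ± 0.06 (adjusted p = 0.00178). Cntnap2 and Ctnna2, a neuronal adhesion protein and a catenin, held 6 and 5 with medians of 0.78 and 0.42, of which 2 and 1 were higher, and neither host passed the test (0.00 and 0.01). The sign of Ank2, Cntnap2 and Ctnna2 itself changed under several alternatives.

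**Figure D2:**
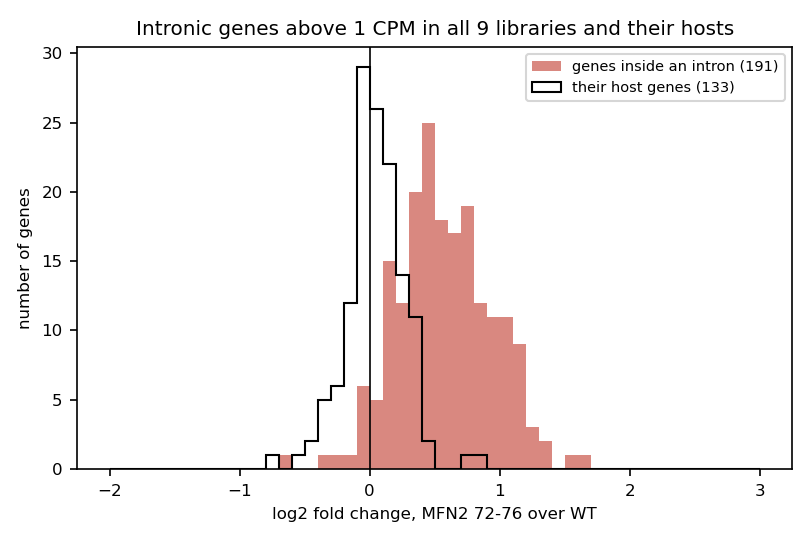
Histogram of the log2 fold change of MFN2 72 to 76 over WT (horizontal axis) for the 191 noncoding genes inside introns that were above 1 CPM in all 9 libraries (filled, median 0.56) and for their 133 protein-coding hosts (outline, median 0.03); the vertical axis is the number of genes. The filled distribution lies to the right of the outline.

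Among protein-coding genes, calls followed base composition and length. In the lowest of 5 classes by GC content 450 of 2738 genes were higher and 193 lower, and in the highest class 127 were higher and 583 lower. The medians of these classes were 0.05 and -0.10 on the log2 scale. By exonic length, 152 of the 2738 shortest genes were higher and 527 lower, while of the 2737 longest 501 were higher and 228 lower. In MFN2 41 to 43 against WT the medians of the GC classes lay between -0.01 and 0.02, and those of the length classes went from -0.03 in the shortest to 0.03 in the longest genes (-0.0033 and 0.0081 without library 43). After offsets that remove both dependences from each library, 3463 genes were called, 1668 higher and 1795 lower. Of 512 X-linked genes, 94 (18.4%) were higher and 43 (8.4%) lower, beside 11.1% and 12.7% over all genes. Without WT library 44, the one without Xist, 107 were higher and 47 lower, beside 2146 and 2371 of all 15636 genes. GC content, length and function overlap among genes, and their separate parts were not tested.

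**Figure D3:**
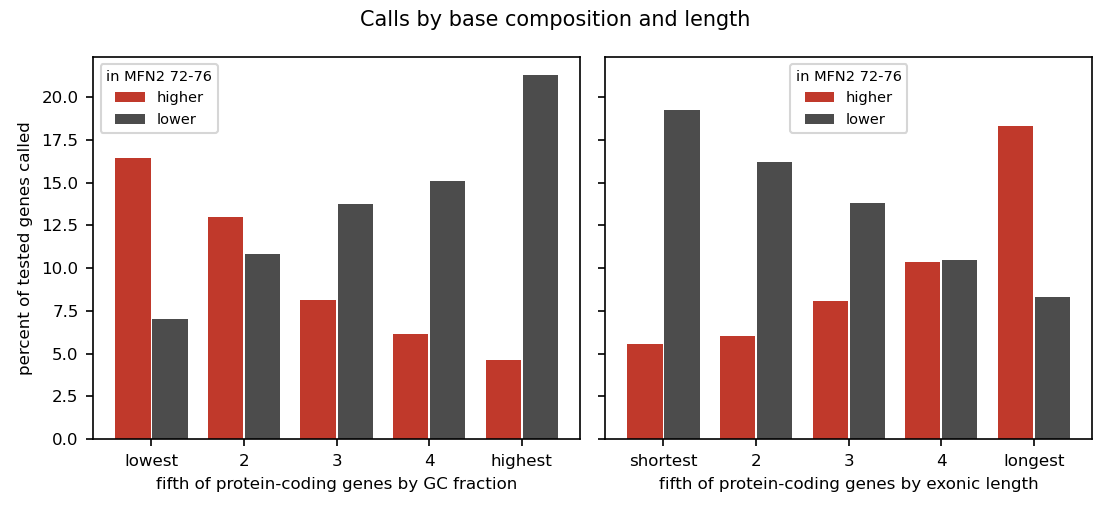
Percent of tested protein-coding genes called higher (red) and lower (grey) in MFN2 72 to 76 (vertical axis, from 0), in 5 classes by GC fraction (left) and by exonic length (right). Higher calls go from 16.4% to 4.64% and lower calls from 7.05% to 21.3% as GC rises.

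Ribosomal protein genes were mostly lower where they were called. Of 83 tested cytosolic ribosomal protein genes, which build both subunits of the ribosome, 43 (51.8%) were lower and 1 (1.2%) higher, beside 12.7% and 11.1% over all genes. Their median log2 fold change was -0.21, and -0.14 with library size alone, where that of all genes is 0.07. Rps16, of the small subunit, was at 59.1, 50.6, 56.4 and 54.8 CPM in WT and 33.4, 37.4, 31.3, 29.6 and 35.5 CPM in MFN2 72 to 76, without overlap (log2 fold change -0.73 ± 0.07, adjusted p = 0.000147). Rps10, Rps12 and Rpl30 fell by 0.60, 0.51 and 0.57. Of single libraries, leaving out WT 45 gave the fewest lower ribosomal protein genes (36) and leaving out WT 44 the most (48). Their median log2 fold change was -0.07 in MFN2 41 and 42 against WT and -0.02 with library 43. Many ribosomal protein genes have processed pseudogenes, near copies without introns, and reads common to both may be counted for either. Of 79 processed pseudogenes above 1 CPM in all 9 libraries, 18 were higher and 4 lower, where 11.8% and 13.4% of all genes under that filter were. The sum over all processed pseudogenes was 3973 to 4195 CPM in WT and 3852 to 4520 CPM in MFN2 72 to 76, so the groups overlapped. Gm8730 was at 0.917, 0.612, 0.797 and 1.04 CPM in WT and 12.4, 14.2, 11.4, 13 and 23.2 CPM in MFN2 72 to 76, and 19.9% of its runs of 75 bases occur exactly in Rplp0, a ribosomal stalk protein gene. Rplp0 fell from 168 to 116 CPM (log2 fold change -0.53 ± 0.09, adjusted p = 0.0025).

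Of 80 tested nuclear-encoded respiratory chain subunits of complexes I to V, 27 (33.8%) were lower and 7 (8.75%) higher, beside 12.7% and 11.1% over all genes. Their median was -0.12, and -0.05 with library size alone as scaling, where the median of all genes is 0.07. Their summed level was 8410 to 9329 CPM in WT and 8185 to 8496 CPM in MFN2 72 to 76, so the groups overlapped. Atp5a1, of the ATP synthase and the most abundant member, was at 768, 792, 809 and 732 CPM and 816, 743, 789, 771 and 749 CPM and did not pass the test (-0.00 ± 0.05, adjusted p = 0.959). Ndufb3, of complex I, was at 28.4, 36.3, 34.4 and 32.3 CPM in WT and 22.1, 19.6, 21.6, 22.9 and 23.5 CPM in MFN2 72 to 76 (log2 fold change -0.58 ± 0.08, adjusted p = 0.000622). Uqcr11 of complex III and Cox5b and Cox6a1 of complex IV fell by 0.39, 0.34 and 0.43, each without overlap between the groups. Without WT library 46 the lower count of the list was 17. In MFN2 41 and 42 against WT the median of the list was -0.04, and with library 43 it was -0.11, where none of its members was called. Of 77 mitochondrial ribosomal protein genes, 7 were lower and 5 higher (background 12.7% and 11.1%). Of these genes 2 were higher without WT 45 and 3 without WT 47 or MFN2 73, and 4 were lower without WT 46. Mrps5, the most abundant of them, rose by 0.23 (adjusted p = 0.0162).

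Of 25 genes of mitochondrial fusion, fission and contact, 6 were lower and 1 higher, beside 12.7% and 11.1% over all genes. Fis1, an outer membrane adaptor of fission, was at 55, 68, 67.5 and 67.8 CPM in WT and 46.1, 45, 47.8, 46 and 46.9 CPM in MFN2 72 to 76 (log2 fold change -0.48 ± 0.06, adjusted p = 0.000595). The fission factor Mff fell by 0.24 (adjusted p = 0.00184) and Vdac1, the outer membrane pore, by 0.21 (adjusted p = 0.00416). In 27 import genes, 6 were lower and 2 higher, and 3 lower without WT library 46 or MFN2 library 74. Hspa9, the mitochondrial HSP70 and the most abundant of these, was one of the higher ones (0.18, adjusted p = 0.0147). The receptor Tomm20 did not pass (-0.08 ± 0.05, adjusted p = 0.299). Of 19 genes of axonal mitochondrial transport, 4 were lower and 3 higher, with 1 lower without WT 45 and 7 without WT 44. The most changed of these was Myo19, a myosin of mitochondria, at 5.11, 4.43, 5.27 and 6.73 CPM in WT and 8.52, 12.3, 10.4, 12.4 and 9.43 CPM in MFN2 72 to 76 (log2 fold change 0.98, adjusted p = 0.000969).

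Of 44 autophagy and mitophagy genes, 11 (25%) were lower and 3 (6.82%) higher, beside 12.7% and 11.1% over all genes. Their median was -0.08, and -0.0069 with library size alone, where that of all genes is 0.07. Map1lc3b, which encodes the autophagosome protein LC3B, was at 138, 154, 169 and 153 CPM in WT and 112, 113, 118, 112 and 114 CPM in MFN2 72 to 76. All 5 MFN2 libraries lay below the lowest WT library (log2 fold change -0.43 ± 0.06, adjusted p = 0.000478). Pink1, the kinase that marks damaged mitochondria, was at 233, 293, 301 and 289.6 CPM and 174, 201, 181, 171 and 202 CPM (log2 fold change -0.59 ± 0.08, adjusted p = 0.000635). Wipi1 and the mitophagy receptor Bnip3l fell by 0.45 and 0.37. The cargo receptor Sqstm1, or p62, was at 287 ± 25.1 CPM (SD, n = 4) and 297 ± 19.8 CPM (SD, n = 5) and did not pass (adjusted p = 0.636), nor did Bnip3 (-0.11 ± 0.08, adjusted p = 0.293). The lower count fell to 5 without WT library 46 or MFN2 library 75, to 6 without WT 45 and to 7 without WT 47, MFN2 73 or MFN2 74. Map1lc3b was at 146, 147 and 99 CPM in MFN2 41 to 43, with libraries 41 and 42 within the WT range.

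Of 44 lysosomal membrane, hydrolase and proton pump genes, 17 (38.6%) were lower and 1 (2.27%) higher, beside 12.7% and 11.1% over all genes, with 15 to 19 lower when single libraries were left out. Their median was -0.15, and -0.08 with library size alone, where that of all genes is 0.07. Ctsd, the protease cathepsin D, was at 90, 107, 116 and 105 CPM in WT and 73.3, 69.6, 75.8, 68.3 and 81.2 CPM in MFN2 72 to 76 (log2 fold change -0.51 ± 0.07, adjusted p = 0.000769). Lamp2, a membrane protein of the lysosome, fell by 0.39 (adjusted p = 0.00134), Psap, a precursor of sphingolipid activators, by 0.27 (adjusted p = 0.00304) and Atp6v0b, of the proton pump, by 0.41 (adjusted p = 0.000722). Hexa, a hydrolase of gangliosides, fell by 0.39 (adjusted p = 0.00252). Lamp1, the other major membrane protein, did not pass (-0.13 ± 0.08, adjusted p = 0.277). Of 32 glycolysis and citric acid cycle genes, 6 were lower and 3 higher: Ldhb and Pkm, enzymes of the last steps of glycolysis, fell by 0.38 and 0.35. Aldoc, an aldolase of astrocytes and the most abundant of these genes, fell by 0.22, a call lost in 9 of 25 alternatives. Of 42 proteasome subunits, 9 were lower and 5 higher, and 3 were lower without MFN2 library 75. Psmb5, a catalytic subunit, fell by 0.57 (adjusted p = 0.000675).

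**Figure D4:**
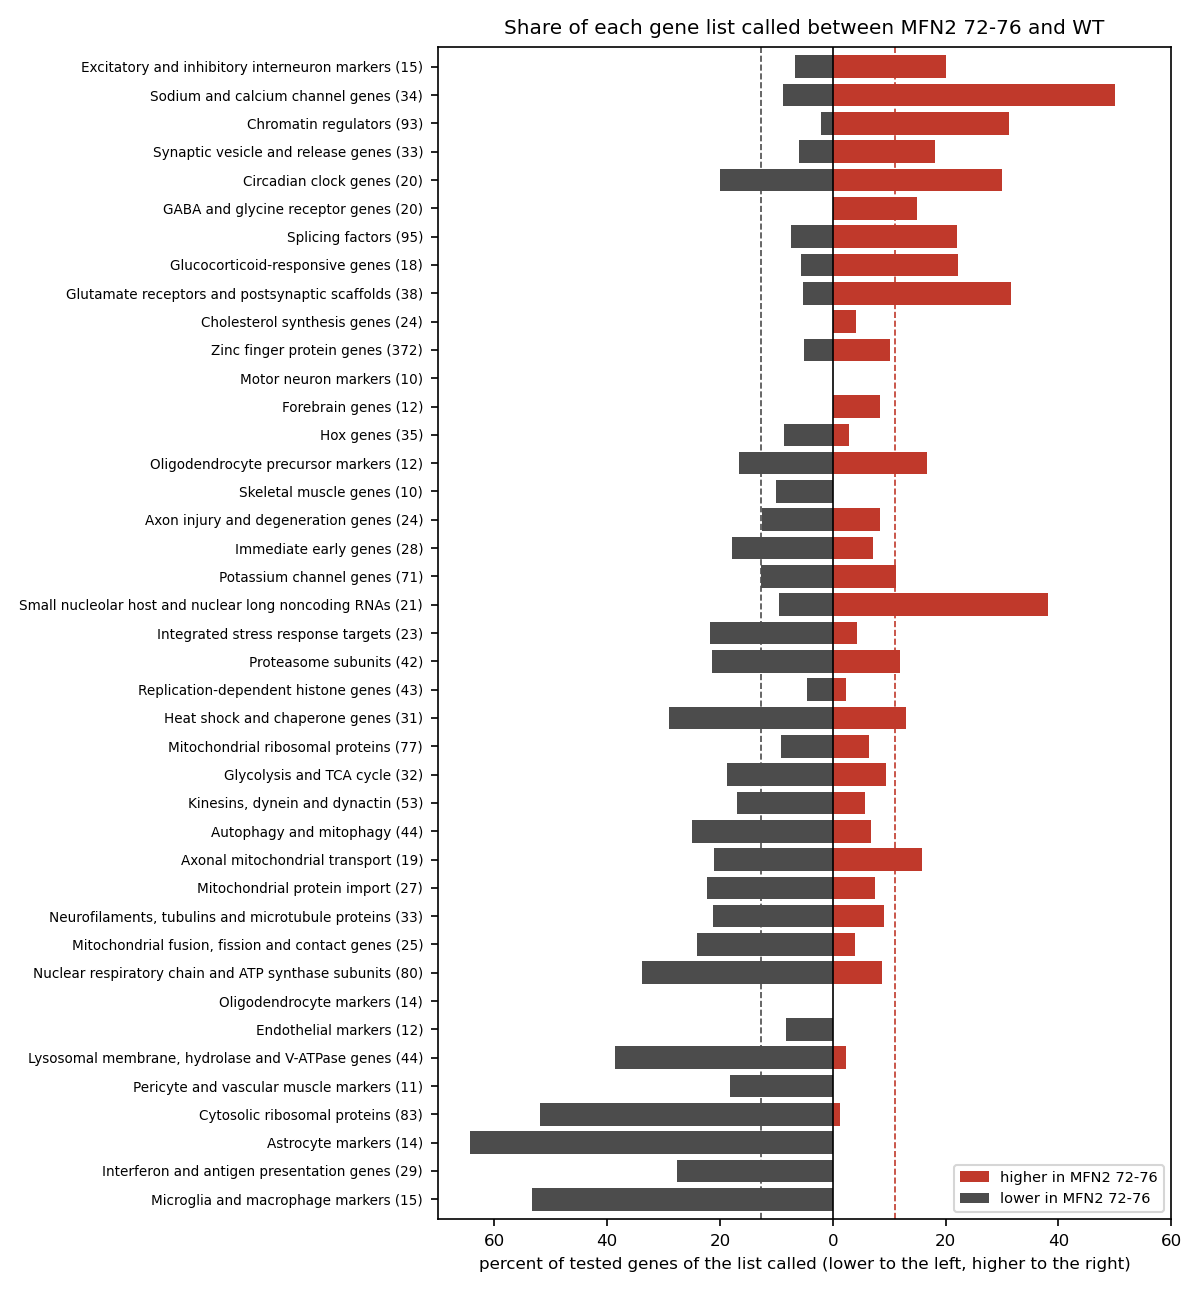
Percent of the tested genes of each list (number in brackets) called higher (to the right, red) or lower (to the left, grey) in MFN2 72 to 76 against WT, for lists of 10 or more tested genes ordered by median log2 fold change. Dashed lines mark the shares over all genes, 11.1% higher and 12.7% lower, and the longest bars are those of astrocyte markers (64.3% lower), microglia and macrophage markers (53.3% lower) and cytosolic ribosomal proteins (51.8% lower).

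Of 93 chromatin regulators, 29 (31.2%) were higher and 2 (2.15%) lower, beside 11.1% and 12.7% over all genes, with a median of 0.13. Brd3, a reader of acetylated histones, rose by 0.42 (adjusted p = 0.000633). Arid4b, of a histone deacetylase complex, rose by 0.35 and Kmt2e, of the histone methyltransferase family, by 0.36. Without WT library 46 the higher count was 16, and without WT 45 it was 19. Of 95 splicing factors, 21 (22.1%) were higher and 7 (7.37%) lower, with a median of 0.09, and 0.04 with GC and length offsets. Rbm25, a regulator of splice site choice, was at 142, 137, 131 and 142 CPM in WT and 194, 209.6, 213, 208 and 179 CPM in MFN2 72 to 76 (log2 fold change 0.54 ± 0.06, adjusted p = 0.000197). The splicing kinase Prpf4b, the SR-like protein Srsf11 and the RNA-binding Hnrnpdl rose by 0.44, 0.46 and 0.39. Leaving out single libraries gave 18 to 23 higher splicing factors. Of 372 zinc finger genes, 38 (10.2%) were higher and 19 (5.11%) lower, beside 11.1% and 12.7% over all genes, and 22 were higher without WT 46 and 24 without WT 45. The lower count was 8 to 11 without WT 45, WT 46, MFN2 72, MFN2 73, MFN2 74 or MFN2 75. Zfp106, the most abundant of them, fell by 0.22 (adjusted p = 0.01).

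Astrocyte markers were lower in part in MFN2 72 to 76. Of 14 astrocyte markers, 9 (64.3%) were lower and none higher, beside 12.7% and 11.1% over all genes (median -0.22). In bulk tissue fewer cells of a type and less RNA per cell cannot be told apart. Gfap, the intermediate filament of astrocytes, was at 1549.5, 2761, 1927 and 2029 CPM in WT and 756, 985, 775, 805 and 1565 CPM in MFN2 72 to 76, so MFN2 library 76 lay within the WT range and the other 4 below it (log2 fold change -1.08 ± 0.26, adjusted p = 0.0213). That call was lost without WT library 45. Ntsr2, a receptor of astrocytes, was at 111, 103, 94.7 and 90.1 CPM and 56.4, 64.3, 58.5, 58.9 and 65.8 CPM, without overlap (adjusted p = 7.64e-05). The calcium-binding S100b fell by 0.83 (adjusted p = 0.026), a call lost in 9 of 25 alternatives. Aldh1l1, Gja1 and Slc1a2, an enzyme of folate metabolism, a gap junction protein and the glutamate transporter, fell by 0.30, 0.31 and 0.16, and the call of Slc1a2 was lost in 12 of 25 alternatives. The summed level of the 14 markers was 12113, 12956, 11916 and 12099 CPM in WT and 9279, 9688, 9325, 9292 and 10968 CPM in MFN2 72 to 76, with Slc1a2 as the most abundant. The lower count was 5 without WT 45, MFN2 74 or MFN2 75. Mlc1, a membrane protein of astrocyte end feet, was among the 5 protein-coding genes with the lowest p on the lower side, at 134, 127, 119 and 121 CPM and 72, 69.9, 73.5, 70.3 and 80.5 CPM (log2 fold change -0.78 ± 0.06, adjusted p = 1.24e-05). In MFN2 41, 42 and 43 it was at 133, 111 and 97.7 CPM.

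Of 15 microglia and macrophage markers, 8 (53.3%) were lower and none higher, beside 12.7% and 11.1% over all genes (median -0.33). The summed level was 220.1, 287, 263 and 265 CPM in WT and 192, 209, 195, 165 and 211 CPM in MFN2 72 to 76. Cx3cr1, the fractalkine receptor, was at 27.2, 32.9, 28.9 and 31.9 CPM and 21, 20.3, 23, 19.3 and 22.9 CPM (log2 fold change -0.51 ± 0.08, adjusted p = 0.00114). The complement gene C1qa and the surface marker Tmem119 fell by 0.84 and 0.76, neither overlapping between the groups. Without WT 45 or WT 46 the lower count was 4, and without MFN2 72, 74 or 75 it was 5. Antigen presentation genes went the same way: of 29 interferon and antigen presentation genes, 8 (27.6%) were lower and none higher. B2m, the light chain of class I molecules, was at 74.5, 41.2, 41.2 and 39.4 CPM in WT, where library 44 stood above the other 3, and 25.8, 23.6, 30.3, 16 and 19.4 CPM in MFN2 72 to 76 (log2 fold change -1.09 ± 0.25, adjusted p = 0.016). The class I heavy chains H2-K1 and H2-D1 fell by 1.02 and 0.66, calls lost in 4 and 12 of 25 alternatives. Without WT library 44 the median of this list was -0.08 in place of -0.23, and without MFN2 75 its lower count was 5.

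Other non-neuronal genes held several of the largest falls. C3, the central complement protein, was at 53.1, 98.5, 67 and 83.1 CPM in WT and 10.3, 13.3, 12.4, 12.6 and 29.5 CPM in MFN2 72 to 76 (log2 fold change -2.28 ± 0.34, adjusted p = 0.00339). Its level was 117, 22.3 and 4.05 CPM in MFN2 41 to 43, a wider range than in either group. C4b and the cytokine Il33, a pair named after their values were seen, fell by 1.23 and 1.34. Ptgds, the prostaglandin D synthase of the meninges, was at 117, 201, 210.3 and 156 CPM and 42.8, 68.9, 46.1, 35.4 and 47.7 CPM, without overlap (log2 fold change -1.83 ± 0.23, adjusted p = 0.00148). It was the 1 called gene of 9 meningeal markers, of 12 listed, whose sum was 636, 328, 467 and 444 CPM in WT and 287, 509, 277, 213 and 379 CPM in MFN2 72 to 76, with Col1a1 as the most abundant. Foxj1, the regulator of motile cilia in ependymal cells, was at 16.8, 24.7, 23.1 and 22.1 CPM and 9.97, 10.1, 9.41, 9.79 and 12.4 CPM (log2 fold change -1.07, adjusted p = 0.000185), and with Sox2 it was lower among 9 tested ependymal markers of 12 listed. Beside 12.7% lower and 11.1% higher over all genes, 11.1% of the meningeal and 22.2% of the ependymal markers were lower. The median log2 fold change of the ependymal list was -0.34, and 0.04 without WT library 44, where 2 members were still lower. That of the meningeal list was -0.14 and changed sign without WT 44 or MFN2 75. Of 12 endothelial and 11 pericyte markers, 1 (8.33%) and 2 (18.2%) were lower. Without WT library 44, 6 of each were lower, where 2371 of all 15636 genes were. None of 14 oligodendrocyte markers was called, among them Mbp, a protein of compact myelin (-0.38 ± 0.16 on the log2 scale, adjusted p = 0.109), but 4 were lower without MFN2 library 76, 2 lower without WT 44 and 1 higher without MFN2 72. The sum of the 14 was 26186, 32709, 27052 and 33450.5 CPM in WT and 25016, 30460.3, 26358, 26787 and 37973 CPM in MFN2 72 to 76. The part of cell composition in these results was not tested.

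Sodium and calcium channel genes held more higher calls than lower ones. Of 34 sodium and calcium channel genes, 17 (50%) were higher and 3 (8.82%) lower, beside 11.1% and 12.7% over all genes, with a median of 0.29. Scn8a, the most abundant of them and a sodium channel of nodes of Ranvier, was at 605, 652, 697 and 669.9 CPM in WT and 675, 640.1, 646, 669 and 646 CPM in MFN2 72 to 76 and did not pass (-0.00 ± 0.05, adjusted p = 0.976). Scn2a, a sodium channel of axons, was at 139, 107, 117 and 86.6 CPM in WT and 203, 152, 194, 186 and 142 CPM in MFN2 72 to 76 (log2 fold change 0.64 ± 0.15, adjusted p = 0.0137). Cacna1b and Cacna1d, the pore subunits of N-type and L-type calcium channels, rose by 0.40 and 0.46, without overlap, and the auxiliary subunit Cacnb2 by 0.20 (adjusted p = 0.0128). Calls in this list depended on single libraries: 5 were higher without MFN2 74, 7 without WT 45, 8 without WT 46 or MFN2 72, 9 without MFN2 75 and 10 without WT 47. Of 38 glutamate receptor and postsynaptic scaffold genes, 12 (31.6%) were higher and 2 (5.26%) lower. The higher count was 4 to 6 without WT 45, WT 46, MFN2 72, MFN2 74 or MFN2 75. The lower count was 6 without WT 44 and 1 without WT 45 or MFN2 74. Gria2, an AMPA receptor subunit, was at 208, 170.1, 176 and 166 CPM and 256, 246, 272, 260.1 and 218 CPM (log2 fold change 0.47 ± 0.08, adjusted p = 0.00159). Dlgap2, Grm8 and Homer1, a scaffold, a metabotropic receptor and its linker, rose by 0.41, 0.45 and 0.31. Grin1, the shared NMDA receptor subunit and the most abundant of the list, changed by 0.20 ± 0.06 (adjusted p = 0.0302).

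Of 33 synaptic vesicle and release genes, 6 were higher and 2 lower. Snap25, a membrane fusion protein and the most abundant of them, was one of the lower ones (-0.18, adjusted p = 0.0414), a call lost in 10 of 25 alternatives. Stx1a, a membrane fusion protein of the nerve terminal, rose by 0.57 (adjusted p = 0.0113), and Pclo, a scaffold of the release site, by 0.25 (adjusted p = 0.00585). Gad1, which makes GABA, and the peptide gene Npy, both markers of interneurons, were at 167, 127, 146, 151 and 134 CPM and 8.22, 5.82, 7.89, 7.08 and 5.61 CPM in MFN2 72 to 76 against 125, 110.2, 120.1 and 87.6 CPM and 4.67, 3.15, 3.1 and 2.14 CPM in WT. For Gad1, MFN2 41 and 42 were at 147 and 148 CPM, within the range of 72 to 76. For Stx1a, Gad1 and Scn2a, chosen after their values were seen, libraries 41 and 42 lay nearer to the mean of MFN2 72 to 76 than to that of WT. For 3 calcium channel genes above they lay nearer to WT, at 104 and 103 CPM for Cacna1b, 28.7 and 32.2 CPM for Cacna1d and 38.5 and 45.1 CPM for Cacnb2. Of 10 motor neuron markers none was called, with a median log2 fold change of -0.03 to 0.29 when single libraries were left out and 3 higher without WT 47, and their sum, mostly Nefh, was 1933, 2665, 2758 and 3209 CPM in WT and 2838, 2717, 2995, 3261 and 3317 CPM in MFN2 72 to 76. Glra1, the main glycine receptor subunit of the adult cord, rose by 0.23 ± 0.06 (adjusted p = 0.0125). Of 71 potassium channel genes 8 were higher (11.3%) and 9 lower (12.7%), the shares over all genes being 11.1% and 12.7%. Single libraries moved these counts, to 1 higher without MFN2 75, 2 without MFN2 72, 3 without WT 45, WT 46 or MFN2 74 and 5 without WT 47, to 5 lower without WT 46, and to 14 higher and 14 lower without WT 44.

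Of 33 neurofilament, tubulin and microtubule protein genes, 7 were lower (21.2%, beside 12.7% over all genes) and 3 higher, and 2 were lower without WT 45 or WT 46 and 14 without WT 44. Map4 and Mapt, microtubule-binding proteins, fell by 0.47 (adjusted p = 0.000524) and 0.34 (adjusted p = 0.00234). Nefh, the heavy neurofilament, did not pass (0.23 ± 0.13, adjusted p = 0.221). Of 53 kinesin, dynein and dynactin genes, 9 were lower (17%) and 3 higher. Without WT 44, 14 were lower, where 2371 of all 15636 genes were. Kif13b was at 118, 165, 139.8 and 190.5 CPM in WT and 97.9, 106, 88.9, 86.9 and 104 CPM in MFN2 72 to 76, Kif1c fell by 0.53 and the dynein light chain Dynll2 by 0.33.

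The circadian clock is a loop in which ARNTL (BMAL1) and CLOCK, or its stand-in NPAS2, activate Per, Cry, Dbp and Ciart through E-box sequences, and the PER and CRY proteins then hold them back. Members of its arms moved in opposite directions. Per1 was at 23.7, 26.7, 20.6 and 25.8 CPM in WT and 48, 54.6, 59.6, 41.2 and 43.2 CPM in MFN2 72 to 76, about 2.04 times the WT mean (log2 fold change 1.03 ± 0.12, adjusted p = 0.000428). Dbp was at 36.5, 32.8, 26.6 and 26.7 CPM and 61.7, 48.3, 48.9, 60.6 and 59.2 CPM (log2 fold change 0.86 ± 0.11, adjusted p = 0.000759). Per3, Per2, Ciart and Cry2 rose by 0.65, 0.56, 0.55 and 0.15. Npas2 went the other way, at 18, 13.8, 16.2 and 14.7 CPM in WT and 9.45, 10.7, 10.2, 9.55 and 9.53 CPM in MFN2 72 to 76 (log2 fold change -0.67 ± 0.09, adjusted p = 0.000575). Arntl and Nfil3 fell by 0.40 and 0.32, of which Nfil3 was lost in 20 of 25 alternatives, and the call of Cry2 was lost in 9. In none of these genes did the 2 groups overlap. In total 6 of 20 clock genes were higher and 4 lower, against 11.1% and 12.7% over all genes. Without WT 44, 10 were higher, where 2146 of all 15636 genes were. In MFN2 41 and 42, Per1 was at 28.1 and 25.7 CPM and Npas2 at 15 and 15.6 CPM, near WT, while Dbp was at 43.7 and 37.3 CPM, above all 4 WT libraries. The median log2 fold change of the clock list against WT was 0.11 in MFN2 72 to 76, 0.14 in MFN2 41 to 43 and 0.05 in MFN2 41 and 42. The hour at which tissue was taken was not given in the sources used here, so it cannot be told apart from the groups.

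**Figure D5:**
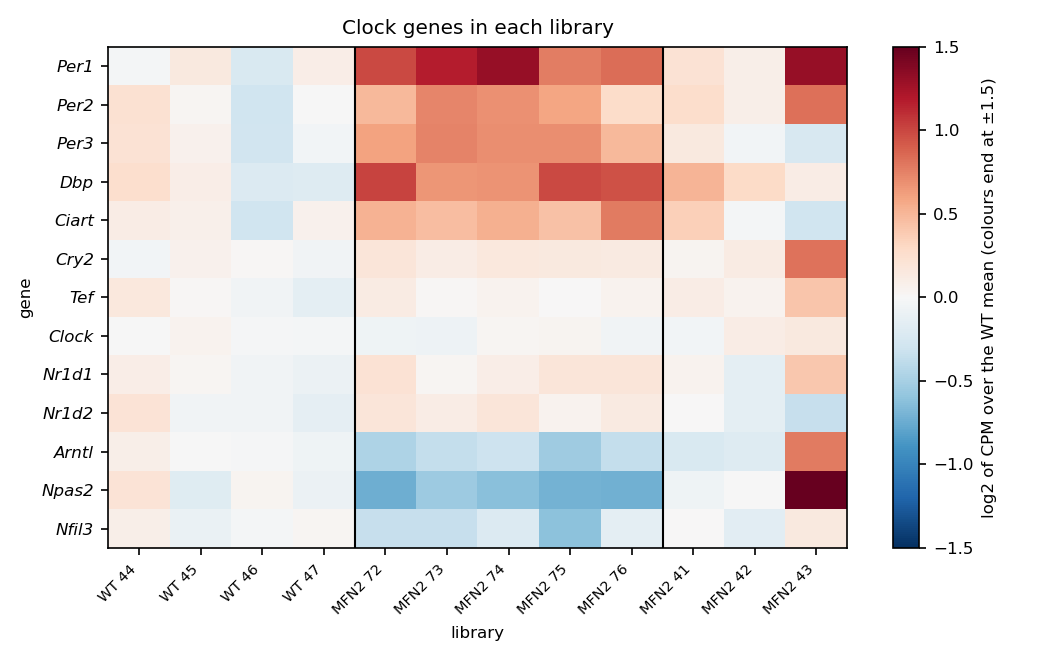
Level of 13 clock genes (rows) in each library (columns) as log2 of CPM over the WT mean; red is above and blue below the WT mean, and vertical lines divide WT 44 to 47, MFN2 72 to 76 and MFN2 41 to 43. The 5 columns of MFN2 72 to 76 are red for Per1, Per2, Per3, Dbp and Ciart and blue for Arntl, Npas2 and Nfil3.

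Promoters of 3 of the risen clock genes are shown because they hold the letters of the E-box or the D-box, elements that clock proteins are known to bind. Each is the 250 bases before a RefSeq start (GRCm38.p6), written 5′ to 3′ along the gene, with capitals for the E-box CACGTG (the same on both strands) in Ciart and Per1 and for the D-box TTATGTAA in Per3. Ciart is on the minus strand at chr3:95882229-95882478, Per1 on the plus strand at chr11:69098699-69098948 and Per3 on the minus strand at chr4:151044666-151044915.
Ciart: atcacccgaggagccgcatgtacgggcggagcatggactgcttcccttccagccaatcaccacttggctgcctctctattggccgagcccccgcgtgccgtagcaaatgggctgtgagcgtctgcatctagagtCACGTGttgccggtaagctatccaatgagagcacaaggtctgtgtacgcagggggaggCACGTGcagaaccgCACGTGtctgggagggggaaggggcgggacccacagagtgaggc
Per1: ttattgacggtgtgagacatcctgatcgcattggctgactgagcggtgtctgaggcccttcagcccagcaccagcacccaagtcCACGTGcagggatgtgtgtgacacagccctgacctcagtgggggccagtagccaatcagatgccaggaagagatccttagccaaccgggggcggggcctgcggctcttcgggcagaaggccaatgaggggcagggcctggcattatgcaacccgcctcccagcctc
Per3: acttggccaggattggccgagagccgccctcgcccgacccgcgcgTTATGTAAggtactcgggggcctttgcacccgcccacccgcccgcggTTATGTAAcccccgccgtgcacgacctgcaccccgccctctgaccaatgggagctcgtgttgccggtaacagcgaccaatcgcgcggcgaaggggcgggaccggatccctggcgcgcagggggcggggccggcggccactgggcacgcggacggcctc
Ciart has 3 E-boxes in this window, the most distant starting 116 bases before the start of transcription, and Per1 has 1, in 1 of its 2 listed promoters. The E-box letters occur in 6.02% of all 32851 promoter windows of this length. D-box letters (TTACGTAA, TTATGTAA or TTACATAA, read on both strands) occur in 0.931% of them and at 2 places in Per3. These are matches of letters and were not tested for binding. Dbp, Cry2, Arntl, Npas2 and Nfil3 had neither motif in their windows, and Cry1, Tef and Bhlhe41, which were not called, had the E-box letters. The promoter of Per2 was not analysed here.

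Glucocorticoid-responsive genes overlapped with this set. Of 18 tested, 4 were higher (Per1, Zbtb16, Sgk1 and Sult1a1; 22.2%) and 1 lower (5.56%), beside 11.1% and 12.7% over all genes. Sgk1, a kinase induced by glucocorticoids, was at 19.2, 19, 19.3 and 18.1 CPM in WT and 31.1, 52.5, 69.2, 27.8 and 38.7 CPM in MFN2 72 to 76, with a wide spread in the latter and no overlap (log2 fold change 1.21 ± 0.27, adjusted p = 0.015). The transcription factor Zbtb16 rose by 0.68 (adjusted p = 0.00121), and the call of Sult1a1 was lost in 7 alternatives. Mt1, a metallothionein and the most abundant of the list, was the lower one (-0.45 ± 0.09, adjusted p = 0.00518). Hif3a, a hypoxia-inducible factor with a low level, was among the 5 protein-coding genes with the lowest p on the higher side, at 1.35, 1.13, 1.64 and 1.1 CPM and 5.45, 10.5, 10.3, 5.38 and 6.63 CPM.

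Among called genes of the heat shock, integrated stress response and immediate early lists, lower ones outnumbered higher ones. The shares over all genes were 12.7% lower and 11.1% higher. Median log2 fold changes of these lists lay near 0, at -0.04, -0.02 and -0.002 in this order. With library size alone they were 0.03, 0.05 and 0.07, where that of all genes is 0.07. Of 31 heat shock and chaperone genes, 9 (29%) were lower and 4 (12.9%) higher. The higher count was 2 without WT 45, WT 46, WT 47, MFN2 72, MFN2 74 or MFN2 75. Hspa1b, the inducible form of HSP70, was at 8.26, 5.93, 3.1 and 4.33 CPM in WT and 1.36, 1.2, 1.09, 0.89 and 1.48 CPM in MFN2 72 to 76 (log2 fold change -2.17 ± 0.27, adjusted p = 0.000414). Hspe1, a mitochondrial co-chaperonin, and Hspa5, the chaperone BiP of the endoplasmic reticulum, fell by 0.39 and 0.35. Of 23 targets of the integrated stress response, 5 (21.7%) were lower and 1 (4.35%) higher. Only 1 was lower without WT 45, WT 46, MFN2 72, MFN2 74 or MFN2 75. Atf5, a transcription factor of the mitochondrial stress response, was lower (-0.55 ± 0.12, adjusted p = 0.00587). Psat1, of serine synthesis and the most abundant of the list, fell by 0.38, a call lost in 7 of 25 alternatives. Of 28 immediate early genes 5 (17.9%) were lower and 2 (7.14%) higher: Ier5, Jund and Jun fell by 0.98, 0.44 and 0.38. Their lower count was 3 without WT 45, and their higher count 1 without WT 46, WT 47, MFN2 72, MFN2 73 or MFN2 74. Of 24 axon injury genes, 3 were lower (12.5%), Jun included, and 2 higher (8.33%), beside 12.7% and 11.1% over all genes, with 1 lower without WT 46 and 5 without WT 44. Of 24 cholesterol synthesis genes Idi1 alone was called, higher by 0.47 (adjusted p = 0.0204). That call was lost without WT 45 or WT 46, and without MFN2 76 4 genes of the list were lower and its median turned from 0.08 to -0.03.

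In the remaining lists, counts with all 9 libraries are to be read beside 11.1% higher and 12.7% lower over all genes. Without WT 44, 2146 of all 15636 genes were higher and 2371 lower, and without WT 45, 1069 and 1281 of 15697. Of 43 replication-dependent histone genes 1 was higher and 2 lower, of 12 oligodendrocyte precursor markers 2 and 2, and of 15 interneuron markers 3 (20%) and 1 (6.67%). The interneuron markers had a median log2 fold change of 0.38, and 0.23 to 0.45 when single libraries were left out, and their summed level was 1028 to 1326 CPM in WT and 1234 to 1468 CPM in MFN2 72 to 76, so the groups overlapped. Without WT 44, 5 of these histone genes, 5 interneuron markers and 6 of the receptor genes below were higher, and 4 precursor markers lower. Without WT 45, MFN2 74 or MFN2 75 only 1 interneuron marker was higher. Of 20 GABA and glycine receptor genes 3 were higher, and 1 without WT 45, WT 46, WT 47, MFN2 72 or MFN2 74. Of 7 Schwann cell markers 1 was lower, and none of 4 sensory ganglion markers was called. Among 35 Hox genes, which set position along the cord, 3 were lower and 1 higher (6 higher without WT 44), with Hoxd8 lower by 0.36 (adjusted p = 0.0047). Nrgn, a calmodulin-binding protein of neurons, was the 1 called of 12 forebrain genes, at 11.7, 16.3, 18 and 16.4 CPM in WT and 25.2, 19.3, 23.4, 23.3 and 24.9 CPM in MFN2 72 to 76. Alas2, of heme synthesis in red cells, was the 1 called of 5 hemoglobin genes (1.18 ± 0.36, adjusted p = 0.0479), and it was not called without WT 45, 46 or 47 or MFN2 72, 75 or 76. Pvalb, listed with muscle genes and also expressed by neurons, was lower (-0.62 ± 0.09, adjusted p = 0.00125).

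By the rule for naming genes, the largest protein-coding rises after those above were Fam83d, Adi1 and Pla2g4e, and the largest falls Fggy, Rec8, Nat8f4, Lars2, Serpinb1a and Ccdc3. Adi1, an enzyme of methionine salvage, was at 29.2, 32.2, 28.1 and 33.2 CPM in WT and 72.4, 85, 76.2, 49.3 and 66.8 CPM in MFN2 72 to 76 (log2 fold change 1.19 ± 0.14, adjusted p = 0.000635). Fam83d, of the mitotic spindle, and Pla2g4e, a phospholipase, rose by 1.53 and 1.04. Fggy, a carbohydrate kinase, was at 9.35, 11.7, 9.7 and 10.8 CPM and 0.176, 0.301, 0.443, 2.24 and 3.82 CPM, so libraries 75 and 76 stood above 72 to 74 (adjusted p = 0.0212). Rec8, a meiotic cohesin, showed the same division, at 11.6, 9.23, 13.1 and 9.03 CPM and 0.264, 0.05, 0.523, 3.83 and 2.5 CPM (adjusted p = 0.0306). Nat8f4, an acetyltransferase, was instead evenly low, at 13.3, 10, 13.2 and 10.6 CPM and 2.77, 3.16, 2.41, 2.55 and 3.06 CPM (log2 fold change -2.08 ± 0.13, adjusted p = 6e-06). Serpinb1a, a protease inhibitor, and Ccdc3, a secreted protein, fell by 1.69 and 1.45. Lars2, the mitochondrial leucyl-tRNA synthetase, fell by 1.82, from 1176, 616, 1151 and 978 CPM to 342, 250.4, 291, 283 and 219 CPM, with 459.8, 431 and 901 CPM in MFN2 41 to 43. Of the genes with the lowest p, Kalrn, a synaptic exchange factor, rose by 0.46 (adjusted p = 0.000168). Rida, an enamine deaminase, and the protease Mmp14 fell by 1.20 (adjusted p = 8.45e-06) and 0.89 (adjusted p = 1.51e-05).

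Group means differed by 8-fold or more in 16 called genes, of which 14 were higher. Of these 14, 13 had WT means under 1 CPM, and could pass the filter through the group where they are high, so nothing is read from the direction. The 16 were spread over 10 chromosomes, with 4 on chromosome 3, and 9 of them were processed pseudogenes. The predicted protein-coding gene Gm16867 (chr14:69363504-69503362) was at 4.41, 4, 3.15 and 3.03 CPM in WT, 0, 0.05, 0, 0.039 and 0 CPM in MFN2 72 to 76 and 6.41, 4.35 and 3.25 CPM in MFN2 41 to 43. Gm9936 was at 0.131, 0.141, 0.222 and 0.157 CPM in WT and 3.38, 2.81, 3.18, 2.28 and 3.36 CPM in MFN2 72 to 76, with 0.42, 0.229 and 0.659 CPM in MFN2 41 to 43. Rpsa-ps10 differed from these: it was at 1.35, 2.26, 1.64 and 1.98 CPM in WT, 56.9, 32.7, 30.2, 38.5 and 3.41 CPM in MFN2 72 to 76 and 78.4, 42 and 37.4 CPM in MFN2 41 to 43. The MFN2 libraries other than 76 thus held it at 30.2 CPM or more, in both ranges of library numbers. Of its runs of 75 bases, 64.6% occur exactly in Rpsa, a ribosomal protein gene, which fell by 0.52 (adjusted p = 0.0493), a call lost in 16 of 25 alternatives.

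Set beside the comparison with WT, MFN2 72 to 76 were compared with the other MFN2 libraries, which share their labels. Against 41 to 43, 342 of 15633 genes (2.19%) were called, 157 higher and 185 lower. Against 41 and 42, leaving out library 43 with its forebrain genes, 2375 of 15509 (15.3%) were called, 1138 higher and 1237 lower. MFN2 41 to 43 against WT gave 1 called gene of 15200 (0.00658%), Rpsa-ps10, at an adjusted p of 0.00883, while 1083 genes had an unadjusted p under 0.05. Without library 43 that comparison again gave 1, and DESeq2 gave 5. These comparisons share libraries, so their values are set side by side for the main gene groups. Cytosolic ribosomal proteins had a median log2 fold change of -0.21 for 72 to 76 against WT and -0.16 against 41 and 42. The 191 intronic genes had medians of 0.56 and 0.87, lysosomal genes -0.15 and -0.13, and chromatin regulators 0.13 and 0.09. Sodium and calcium channels had 0.29 and 0.04, and respiratory chain subunits -0.12 and -0.05. Astrocyte markers had -0.22 and -0.29, and microglia and macrophage markers -0.33 and -0.45. Beside them, the medians of MFN2 41 and 42 against WT were -0.07 for cytosolic ribosomal proteins, -0.29 for the 191 intronic genes, -0.02 for lysosomal genes, 0.06 for chromatin regulators, 0.21 for sodium and calcium channels, -0.04 for respiratory chain subunits, 0.01 for astrocyte markers and 0.08 for microglia and macrophage markers. With library 43, which carries forebrain genes, they were -0.02, 0.04, -0.06, 0.10, 0.43, -0.11, -0.27 and 0.22 in the same order. The test of a difference between the comparisons themselves was not made.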

How the data were processed

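The sample labels give the kit of these spinal cord libraries as a SMARTER mRNA-Seq kit and the study's methods give it as a stranded total RNA kit, with poly(A) sequencing. They were sequenced as paired reads of 75 bases, and the authors' processing notes name bcl2fastq, STAR, GRCm38.p6 and edgeR. The deposited values are raw counts per gene and library, while how reads were assigned to genes, and whether by strand, is not given in the sources used here. Reads common to pseudogenes, overlapping genes or repeats may therefore be counted for either gene. Totals ran from 19359454 to 25296863 counts in the 9 libraries compared, and counts of all 16 library pairs within a group differed beyond sampling noise.

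Genes above 1 CPM in 3 or more of the 9 libraries were scaled by TMM and tested with the quasi-likelihood test of edgeR 4.0.16 (R 4.3.3; robust option, Benjamini-Hochberg adjustment, threshold 0.05), after the code had been tested on simulated data. DESeq2 1.42.0 and limma 3.58.1 served as alternatives. Group separation and Mfn2 were tested by exact permutation of libraries. Gene lists are described by counts and medians, with no test of the list. The comparison, the lists and the genes were chosen with earlier results of these data known, and genes inside introns were defined after seeing these data. Genes are named where they are Mfn2 or another gene the study measures as protein. Also named are the 8 largest changes per direction without overlap and with a mean of 5 CPM or more, and the 5 lowest p per direction. From a list described at length, up to 4 called members are named, lowest p first. These come only from the direction with more calls in that list, or the lower one where the calls are equal. The most abundant list members, Xist and Ddx3y, and genes changed 8-fold or more, as counts, complete the rule. Other genes (the nuclear noncoding RNAs, the RNase P family, pseudogenes and their parents, hosts of intronic genes, C4b, Il33, Gm23935 and further clock, mitochondrial and marker genes) were chosen after their values were seen. Of 205 genes that the rule names, 127 are named in the report. The other 78, of which 11 were higher, 46 lower and 21 not called, are not named here. Mitochondrial-chromosome genes and the human transgene were not analysed here.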

Additional observations from a re-analysis of the deposited data

Results flagged for a closer look

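Among 308 sets of 4 WT or 5 MFN2 libraries examined for the named genes, 20 held a library set apart from the rest of its group by Dixon's ratio of the gap to the whole range, where chance gives about 1 in 20, or 15.4. MFN2 library 76 held 8 of these. It was the highest of its group in C3 (ratio 0.845, 29.5 CPM), Map4 (0.805, 526 CPM), Foxj1 (0.776, 12.4 CPM), Gm8730 (0.765, 23.2 CPM), Ciart (0.742, 9.23 CPM) and Gfap (0.718, 1565 CPM). It was the lowest in Adgrb3 (0.760, 89.8 CPM) and Grin1 (0.728, 332 CPM).

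In WT, library 44 was the highest in B2m (0.947, 74.5 CPM) and the lowest in Fis1 (0.960, 55.0 CPM) and Pink1 (0.837, 233 CPM). WT library 46 was the lowest in Ciart (0.879, 4.39 CPM) and the highest in Dlgap2 (0.871, 36.3 CPM), Rpph1 (0.857, 2103 CPM) and Mff (0.849, 148 CPM). Cacnb2 was lowest in WT library 45 (0.831, 41.6 CPM). Rprl2 was lowest in MFN2 library 72 (0.857, 1.63 CPM), and WT library 47 was alone among WT in holding it (1, 0.052 CPM). Glra1 was highest in MFN2 library 72 (0.721, 375 CPM) and Mirg in MFN2 library 75 (0.717, 52.1 CPM).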

How the results depend on the processing

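Of 135 called genes named in the text, 77 stayed called under every alternative that could be fitted, and over all named genes 3528 results kept direction and side of the threshold, 210 lost the call, 7 gained it and 44 changed sign. The sign changes were those of genes not called: Mfn1 with library size alone (0.0047), and Sqstm1 with Xist as a covariate (-0.0139) and without WT library 44 (-0.0084, with values up to 0.0849 without other single libraries), and 3 host genes and the most abundant members of 2 lists. Ank2 was at -0.0541 with length offsets, -0.0154 with GC and length offsets and -0.0184 with Xist as a covariate. Cntnap2 was at -0.0038 without a filter, -0.00063 with filterByExpr, -0.0299 with GC, -0.0290 with length and -0.0416 with both offsets, and Ctnna2 at -0.0017 without a filter, -0.0081 with length offsets and -0.0331 with Xist as a covariate. When single libraries were left out they ranged from -0.0141 to 0.0615, -0.0311 to 0.0278 and -0.0301 to 0.0311. Atp5a1 and Scn8a were at 0.0046 and 0.0064 above 1 CPM in all 9 libraries, 0.00096 and 0.0028 with DESeq2 size factors, 0.0182 and 0.0201 with upper quartile scaling, 0.0671 and 0.0690 with library size alone, 0.00097 and 0.0028 by DESeq2 and 0.0645 and 0.0235 with GC offsets. Atp5a1 was at 0.0320 with length and 0.0837 with both offsets. Without single libraries they ranged from -0.0294 to 0.0174 and -0.0401 to 0.0253. The count of 3746 genes was 1224 with all 12 libraries in the fit, 1166 with a log2 fold change of 0.5 or more required, and 2350 to 4517 when single libraries were left out. Filters, scalings, other tests and composition offsets gave 3463 to 4252, and Xist as a covariate gave 4441. For MFN2 72 to 76 against 41 to 43, the count of 342 was 2375 without library 43 and 1795 by DESeq2, and for 41 to 43 against WT DESeq2 gave 5 in place of 1. The Mfn2 difference ranged from -0.14 to -0.07 and the pseudo-F from 3.37 to 4.83 when single libraries were left out. With library size alone the Mfn2 difference was -0.03. The causes of these shifts were not tested. No paired analysis was possible because no number is common to WT and MFN2 libraries. Class counts without single libraries were alternatives chosen after seeing the data.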
